A study of Neurospora crassa with 6 samples.

Results

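Transcript levels are described here for the proteasome and ubiquitin genes of the filamentous fungus *Neurospora crassa*, namely the 52 of 9872 table entries that the deposited annotation places in the KEGG pathways Proteasome (31 genes) or Ubiquitin mediated proteolysis (21 genes). The rule used annotation and no measured value. Earlier results of these data were known when it was chosen. RNA sequencing covered the Δmak-1 mutant, the Δmak-2 mutant and the wild type, each in 2 cultures. Each mutant lacks 1 gene for a MAP kinase, *mak-1* of the cell wall integrity pathway or *mak-2* of the pheromone response pathway, and the wild type carries both genes. The protoperithecial samples (S) came from SC medium with 0.1% sucrose under cellophane after 3.5 days at 25°C in the dark, which leads the wild type to form its female structures. Both mutants are known to fail at this step and to form mycelial knots in their place. The vegetative samples (A) were hyphae shaken in liquid Vogel's medium for 22 h at 28°C. The submitted RNA was a mix of 3 repeats, so each of the 6 conditions is 1 library, no difference has a replicate check and no p-value is given.

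The 26S proteasome degrades proteins that carry a chain of ubiquitin. Its 20S core is a barrel of alpha rings, which gate the entry, around beta rings, some of whose subunits hold the cutting sites. The 19S particle caps the core, with a base of ATPases that unfold the substrate and a lid that takes ubiquitin off it. Ubiquitin reaches the substrate through an activating enzyme (E1), a conjugating enzyme (E2) and a ligase (E3), and the related protein NEDD8 has an E1 and E2 of its own and switches on the cullin ligases.

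The libraries held 2602076 to 3668046 mapped reads, recovered from the deposited RPKM values (read counts corrected for gene length and for how many reads of each library were mapped). At the median gene length of 1365 bases, 10 RPKM stood for 35.5 to 50.1 reads. *mak-2* had no read in either Δmak-2 library (0 reads allow up to 0.835 RPKM at S and 0.983 RPKM at A), against 586 RPKM in the wild type at S and 68.2 RPKM at A. *mak-1* had 6.08 RPKM in the Δmak-1 mutant at S and 6.39 RPKM at A, against 148 and 42.1 RPKM in the wild type. These low values are 52 and 50 reads of a deleted gene. The paper prints 0 RPKM for it in both Δmak-1 libraries, and the source of the difference was not tested. A ratio was counted as changed when it passed 2-fold (above 2 or below 0.5) with RPKM above 10 in at least 1 of the 2 libraries. The interval after a ratio is the exact 95% interval of 2 read counts, which covers counting error only. RPKM scales to all mapped reads, and most genes then had ratios away from 1 in some comparisons. A second scaling, by the median of ratios over 7705 entries with reads in every library, divided the ratios by 1.75 for the wild type at S over A (0.81 on the log2 scale), by 1.08 and 1.01 for the Δmak-1 and Δmak-2 mutants over wild type at S (0.10 and 0.02 on the log2 scale), and by 1.31 and 1.05 at A (0.39 and 0.08 on the log2 scale). Values so treated are called rescaled below.

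Transcripts of the proteasome made up a larger share of the mapped reads at S than at A in all 3 strains. On this scale the order of the strains was turned round between the stages. At S the 31 genes took 0.526% of mapped reads in the Δmak-1 mutant (95% Wilson interval 0.519% to 0.533%), 0.597% in the Δmak-2 mutant (0.589% to 0.606%) and 0.687% in the wild type (0.679% to 0.696%). At A they took 0.478% in the Δmak-1 mutant (0.470% to 0.485%), 0.399% in the Δmak-2 mutant (0.392% to 0.406%) and 0.332% in the wild type (0.325% to 0.339%). The wild type therefore had the highest share of the 3 strains at S and the lowest at A. Summed per length, the levels were 4886, 5599 and 6429 RPKM in the Δmak-1 mutant, the Δmak-2 mutant and the wild type at S, and 4326, 3776 and 3062 RPKM at A. These shares and sums are not rescaled. The factors of the second scaling at A were 0.926, 0.744 and 0.706 in the same order of strains. With them the order of the 2 mutants at A depends on the scale. Rescaled, the median ratio of the 31 genes at S over A was below 1 in both mutants, at 0.760 (Δmak-1) and 0.958 (Δmak-2), and 1.17 in the wild type. The ubiquitin genes took 0.219%, 0.218% and 0.232% of reads in the same order at S and 0.146%, 0.126% and 0.121% at A, so that this list differed less between the strains at S. In mixed RNA of whole cultures, fewer cells with a transcript and less of it per cell cannot be told apart.

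**Figure D1:**
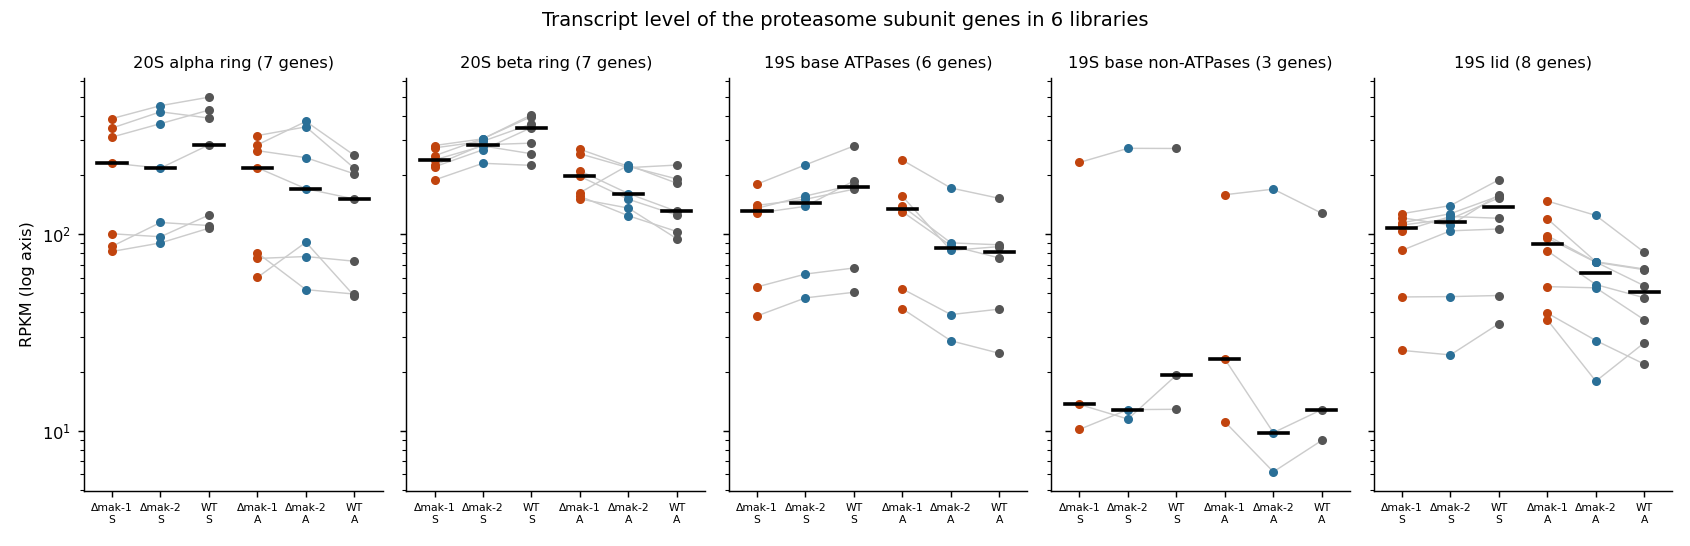
RPKM on a log axis of the 31 proteasome genes in the 6 libraries, 1 panel for each subcomplex. Points are genes, grey lines join a gene within a stage and black bars are medians. In the beta ring the wild type median of 348 RPKM at S lies above those of both mutants, while at A the wild type median of 130 RPKM is the lowest.

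The alpha ring is encoded by 7 genes, and these fell into a high and a low set of levels. *pca-6* had the highest level of all proteasome genes at S, with 387 RPKM in the Δmak-1 mutant, 450 RPKM in the Δmak-2 mutant and 497 RPKM in the wild type, and had 266, 245 and 203 RPKM at A. *pca-2* was the lowest alpha gene at S, with 81.6, 90.2 and 107 RPKM in the Δmak-1 mutant, the Δmak-2 mutant and the wild type, and had 60.3, 90.9 and 48.4 RPKM at A. For *pca-6* the wild type was the top library at S and the bottom one at A, whereas for *pca-2* the Δmak-2 value at A stood out. Its ratio of 1.88 (1.48–2.40) over wild type at A was the largest of any proteasome gene in that mutant. The neighbours in this order were *pca-1* with 1.62 (1.45–1.82), *rpn-9* with 1.54 (1.31–1.81) and *pca-4* with 1.49 (1.33–1.66), and the intervals of these genes overlap. In the wild type, 3 of the 7 alpha genes passed 2-fold upward at S over A, near the share of all genes above the minimum (46.5%), and the median ratio was 1.89. Rescaled, 0 of the 7 passed it (background 23.1%). *pca-3* had the largest, 2.52 (2.06–3.11), and *pca-5* the smallest, 1.52 (1.26–1.83).

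The beta ring, also of 7 genes, was the most even of the subcomplexes in level, from 224 RPKM (*pcb-4*) to 404 RPKM (*pcb-5*) in the wild type at S. *pcb-3* had 250 RPKM in the Δmak-1 mutant, 306 RPKM in the Δmak-2 mutant and 396 RPKM in the wild type at S, against 151, 136 and 94.7 RPKM at A. In the wild type this is 4.18-fold (3.49–5.04) more at S than at A, the largest ratio of the proteasome genes. The lower end of its interval lies above the ratio of every other proteasome gene. *pcb-3* was also among the lowest ratios in the Δmak-1 mutant at S, 0.632 (0.565–0.708), beside *pcb-7* with 0.631 (0.570–0.699). *pcb-7* had 220, 269 and 348 RPKM in the Δmak-1 mutant, the Δmak-2 mutant and the wild type at S and 210, 161 and 130 RPKM at A. In RPKM its level in the Δmak-1 mutant was thus nearly the same at the 2 stages, with a ratio of 1.05 (0.729 rescaled), while in the wild type it was 2.67-fold (2.33–3.07) higher at S. *pcb-6* went another way, with 239, 281 and 256 RPKM at S, so that neither mutant differed much from the wild type. Of the 7 beta genes, 5 passed 2-fold upward at S over A in the wild type (background 46.5%), with a median ratio of 2.12, and 1, *pcb-3*, still did when rescaled (background 23.1%). *pcb-1* was the exception among all 31 genes in the Δmak-1 mutant at A, with a ratio of 0.895 (0.791–1.01) over wild type.

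The base of the 19S particle has 6 ATPase genes, of which *rpt-3* was the highest and *rpt-5* the lowest in all 6 libraries. *rpt-3* had 180, 225 and 281 RPKM in the Δmak-1 mutant, the Δmak-2 mutant and the wild type at S, against 238, 172 and 152 RPKM at A. The Δmak-1 mutant was thus the lowest strain at S, with a ratio of 0.639 (0.584–0.699), and the highest at A, with 1.56 (1.40–1.74). *rpt-5* had 38.4, 47.4 and 50.6 RPKM at S and 41.7, 28.7 and 24.8 RPKM at A, in the same order of strains. The ratios of the 6 ATPases spanned 0.639 to 0.827 in the Δmak-1 mutant at S and 1.27 (*rpt-4*) to 1.802 (NCU05363) at A, 2 ranges apart in RPKM, though *rpt-4* was at 0.966 at A when rescaled. In the Δmak-2 mutant they spanned 0.742 to 0.937 at S and 0.938 to 1.16 at A. At S over A in the wild type, 3 of the 6 passed 2-fold upward, near the background of 46.5%, and 0 did when rescaled (background 23.1%). *rpt-2* had the largest ratio, 2.47 (2.16–2.82).

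The base also holds *rpn-1* and *rpn-2*, whose large products are scaffolds that in yeast bind ubiquitin receptors and shuttles, and *rpn-10*, which encodes a ubiquitin receptor. *rpn-1* was the lowest proteasome gene in every library but that of the Δmak-2 mutant at S, where *rpn-2* was lower, with 10.2, 12.8 and 12.9 RPKM in the Δmak-1 mutant, the Δmak-2 mutant and the wild type at S, and 11.1, 6.18 and 8.94 RPKM at A. With 48 to 117 reads per library its ratios have wide intervals, and at A the pair of Δmak-2 and wild type stayed under 10 RPKM and was left out of the counts. *rpn-2* had 13.6, 11.5 and 19.2 RPKM at S and 23.1, 9.78 and 12.8 RPKM at A. It is the proteasome gene with the lowest ratio in the Δmak-2 mutant at S, 0.598 (0.480–0.742), and it was below 1 at A too, at 0.763 (0.579–1.004). *rpn-10* had 232, 273 and 273 RPKM at S and 159, 169 and 128 RPKM at A, and so did not differ between the Δmak-2 mutant and the wild type at S beyond counting error, with a ratio of 1.002 (0.918–1.09).

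The lid has 8 genes, and as a group they had the largest stage ratios of the wild type, with a median of 2.43 and 6 of 8 past 2-fold upward (background 46.5%). Rescaled, the median was 1.39 and 0 of 8 passed it (background 23.1%). *rpn-11*, which encodes the enzyme that cuts ubiquitin chains from the substrate, had 127 RPKM in the Δmak-1 mutant, 140 RPKM in the Δmak-2 mutant and 189 RPKM in the wild type at S, against 120, 72.4 and 66.4 RPKM at A. *rpn-5* had 121, 111 and 159 RPKM at S and 98.2, 72.1 and 54.6 RPKM at A. *rpn-12* had 82.7, 104 and 106 RPKM at S and 54.1, 53.3 and 36.7 RPKM at A. In the wild type the ratios of these 3 genes at S over A, 2.84 (2.43–3.34), 2.91 (2.50–3.40) and 2.90 (2.27–3.74), cannot be ordered within counting error. *rpn-3* stood at the other end, with 25.6, 24.3 and 35.1 RPKM at S and 36.6, 17.9 and 28.0 RPKM at A, and a ratio of 1.25 (0.991–1.58) at S over A in the wild type, which was 0.714 when rescaled. It was also the proteasome gene with the lowest ratio in the Δmak-2 mutant at A, 0.638 (0.477–0.849). *rpn-7* had 47.9, 48.1 and 48.7 RPKM in the Δmak-1 mutant, the Δmak-2 mutant and the wild type at S, nearly equal, but 39.7, 28.8 and 21.8 RPKM at A, where the Δmak-1 mutant had 1.82 times (1.40–2.37) the wild type level.

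What the proteasome genes did between the stages in the wild type depended on the scale. In RPKM, all 31 had ratios above 1 at S over A (76.0% of all genes above the minimum did), 18 passed 2-fold upward (background 46.5%) and 0 passed it downward (background 10.3%), and the median was 2.05, with the middle of the list from 1.75 to 2.46. The median of all genes was 1.86, so the list lay a little above it. Rescaled, the median of the list was 1.17, 23 of 31 ratios were above 1 (background 50.6%), and *pcb-3*, at 2.39, was the only one still past 2-fold (background 23.1%). Medium, surface, temperature and culture time changed with the stage and cannot be told apart from it. By subcomplex the median RPKM ratios were 1.89 for the alpha ring, 2.12 for the beta ring, 1.99 for the ATPases, 1.497 for the other base genes and 2.43 for the lid.

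**Figure D2:**
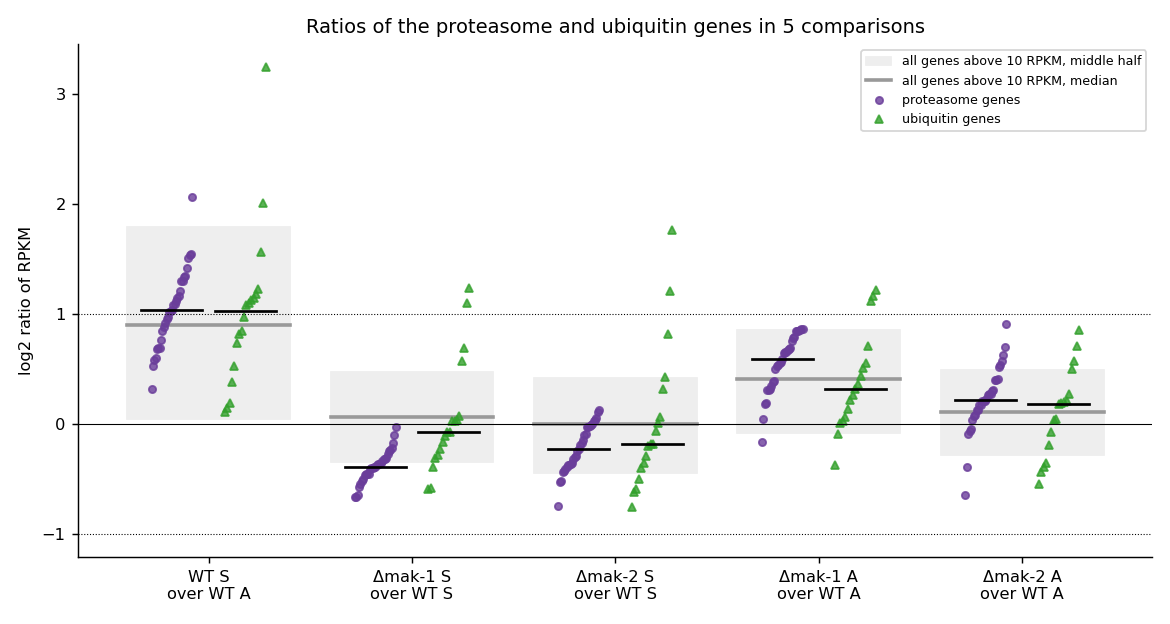
Log2 ratios of RPKM in 5 comparisons, with circles for proteasome genes, triangles for ubiquitin genes, short black bars for list medians and grey boxes for the middle of all genes above 10 RPKM, with a grey bar at their median. Dotted lines mark 2-fold. The 31 proteasome genes form a narrow band below 0 in the Δmak-1 mutant over wild type at S, with a median ratio of 0.762, and the ubiquitin genes are more scattered.

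In the Δmak-1 mutant at S, every proteasome gene was below its wild type level, by a moderate amount. The ratios ran from 0.631 to 0.983 with a median of 0.762, 31 of 31 were below 1 (background 45.5%), and 28 had counting intervals wholly below 1 (background 26.9%, a share that rises with the reads of a gene). None passed 2-fold in either direction (background 11.0% higher and 8.35% lower). The list was also narrow. The SD of its log2 ratios was 0.15, and the middle of the list ran from 0.728 to 0.805, against 0.789 to 1.39 for all genes. The counting intervals of only 20 of the 31 genes held the list median, so the genes did not all share 1 ratio within counting error. That number does not measure how narrow the list is. At A it was 21 (Δmak-1) and 22 (Δmak-2), where the SDs were wider, at 0.26 and 0.31. The 5 subcomplexes had nearly equal medians of 0.784 (alpha ring), 0.755 (beta ring), 0.759 (ATPases), 0.790 (other base genes) and 0.747 (lid). Rescaled, all 31 stayed below 1 (background 53.6%) and the median was 0.709.

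The Δmak-2 mutant at S differed less from the wild type. The median ratio was 0.853 in a range of 0.598 to 1.10, 25 of 31 were below 1 (background 50.2%), 19 counting intervals lay wholly below 1 (background 31.3%), and that of *pcb-6*, 1.10 (1.01–1.19), lay above it (background 29.9%). None passed 2-fold (background 8.56% higher and 10.7% lower). The median was 0.996 for the base genes that are no ATPases, 0.883 for the ATPases, 0.853 for the alpha ring, 0.817 for the beta ring and 0.798 for the lid. The rescaled median was 0.842, with 26 below 1 (background 51.5%). Both mutants were set against the same wild type library at S, which also enters the stage comparison, so a deviation of that library would move all of these ratios.

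At A the mutants stood on the other side. In the Δmak-1 mutant, 30 of 31 proteasome genes were above the wild type (background 71.4%), with a median ratio of 1.51, a range of 0.895 to 1.82 and 27 counting intervals wholly above 1 (background 51.8%). None passed 2-fold (background 18.5% higher and 6.77% lower). All genes together had a median of 1.33 in this comparison, and on the rescaled values the list median was 1.15 with 22 of 31 above 1 (background 49.2%). By subcomplex the RPKM medians were 1.77 for the lid, 1.63 for the ATPases, 1.51 for the beta ring, 1.31 for the alpha ring and 1.24 for the other base genes, a wider spread than in the same mutant at S. In the Δmak-2 mutant, 25 of the 30 genes above the minimum were above the wild type (background 58.0%), with a median of 1.16, or 1.10 rescaled, and 0 past 2-fold (background 7.26% higher and 6.41% lower). The 5 genes below 1 were *rpn-3*, *rpn-2*, *rpt-4*, NCU05363 and *pcb-2*.

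**Figure D3:**
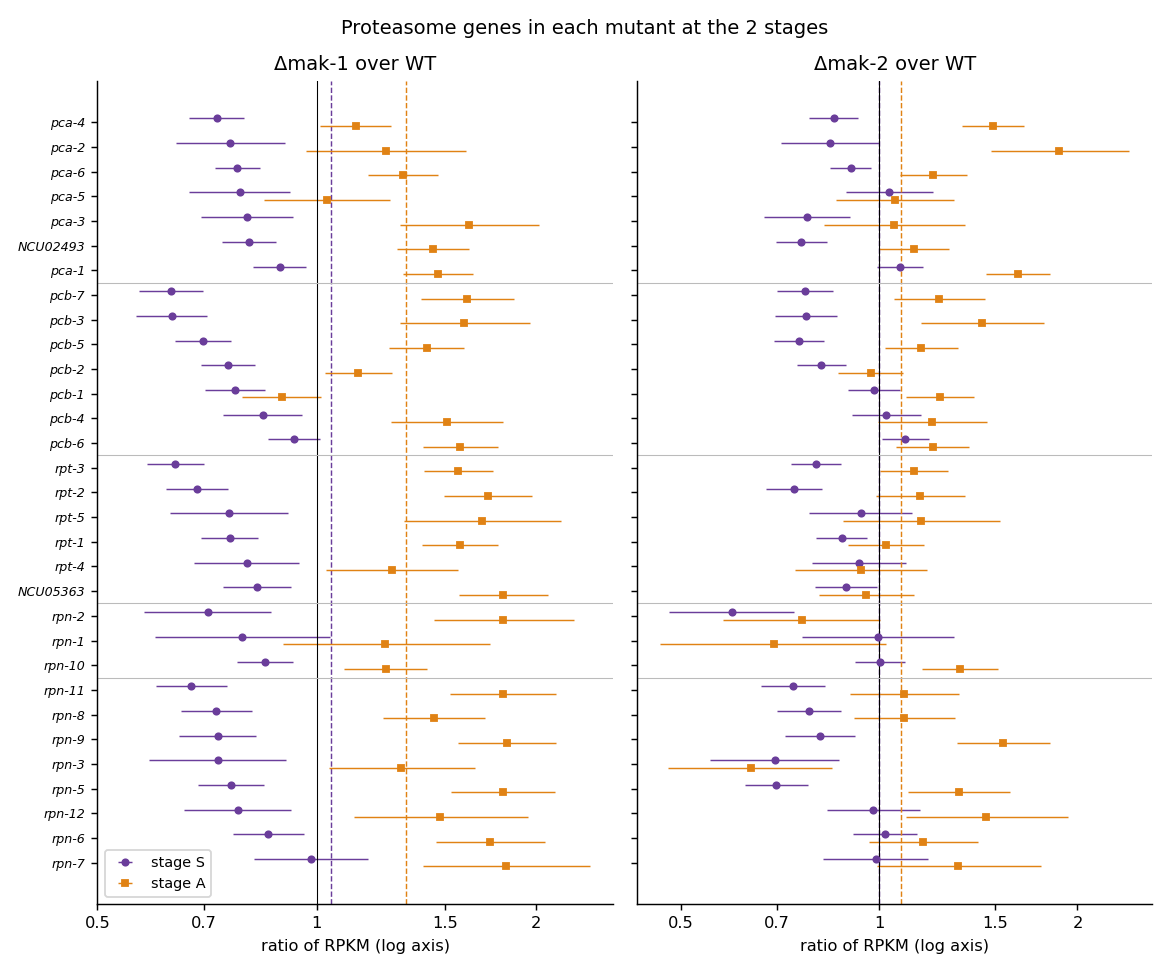
RPKM ratios over wild type on a log axis for the 31 proteasome genes, with the Δmak-1 mutant on the left and the Δmak-2 mutant on the right, circles for S and squares for A. Bars are 95% counting intervals, dashed lines the median of all genes at that stage, and rules between rows part alpha ring, beta ring, ATPases, other base genes and lid from top to bottom. In the Δmak-1 mutant the circles lie left of 1 for all 31 genes and the squares right of it for 30.

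Gene by gene, 30 of the 31 proteasome genes were above the wild type at A and below it at S in the Δmak-1 mutant, the exception being *pcb-1*, which was below it at both stages. Among all genes above the minimum in both comparisons, 31.4% had that order of signs. Rescaled, 22 of 31 had it (background 25.6%) and the other 9 were below 1 at both stages. The ratio at S was smaller than that at A for 31 of 31 genes (background 66.5%) and for 30 rescaled (background 54.2%). In the Δmak-2 mutant the same order of signs was seen for 19 genes (background 24.4%), or 18 rescaled (background 22.5%), and the smaller ratio at S for 29 (background 56.3%), or 27 rescaled (background 53.4%). The difference between the stages was not tested, as there is 1 library per condition.

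The same numbers can be read as stage ratios within each strain, which were added after the data had been seen. At S over A the proteasome genes had a median ratio of 1.09 in the Δmak-1 mutant, with 22 of 31 above 1 in RPKM (background 70.6%) but 4 of 31 when rescaled (background 47.6%), where the median was 0.760. None passed 2-fold in RPKM (background 32.6% higher and 9.48% lower), while rescaled *rpn-2* at 0.410 and *rpn-3* at 0.487 passed it downward (background 17.7%). The Δmak-2 mutant had a median of 1.61, or 0.958 rescaled, and 3 genes past 2-fold, *pcb-3*, *rpn-6* and *rpn-1* (background 41.4%), of which 0 did so when rescaled (background 20.5%). The wild type median over the same genes was 2.05, or 1.17 rescaled. On either scale the order of the medians was Δmak-1, Δmak-2, wild type from low to high.

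Levels of the proteasome genes kept much the same order across the 6 libraries. Spearman's rho between the levels of 2 libraries was 0.930 to 0.985 over the 31 genes, which share their lengths in all libraries. The highest and the lowest gene were 28.1-fold (wild type at A) to 60.5-fold (Δmak-2 at A) apart, although the subunits are present in fixed numbers in the particle. Between its highest and lowest library a gene changed by 1.57-fold (*pca-5*) to 4.18-fold (*pcb-3*). With so wide a spread of levels, changes of that size leave rho high. No rho over all genes is given beside it, so it is not shown to be particular to these genes. The 14 genes of the 20S core had higher levels than the 17 of the 19S particle, with medians of 234 and 111 RPKM in the Δmak-1 mutant, 283 and 120 RPKM in the Δmak-2 mutant, and 319 and 153 RPKM in the wild type at S. At A the medians were 203 and 95.5 RPKM, 166 and 71.9 RPKM, and 141 and 54.6 RPKM in the same order of strains. The 20S genes are also shorter, with a median of 910.5 bases against 1479 bases, and RPKM fell with length. Spearman's rho of level and length was -0.53 to -0.61 over the 6 libraries, or -0.43 to -0.53 without *rpn-1* and *rpn-2*, the longest genes. The part of length in the difference between core and cap was not tested.

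**Figure D4:**
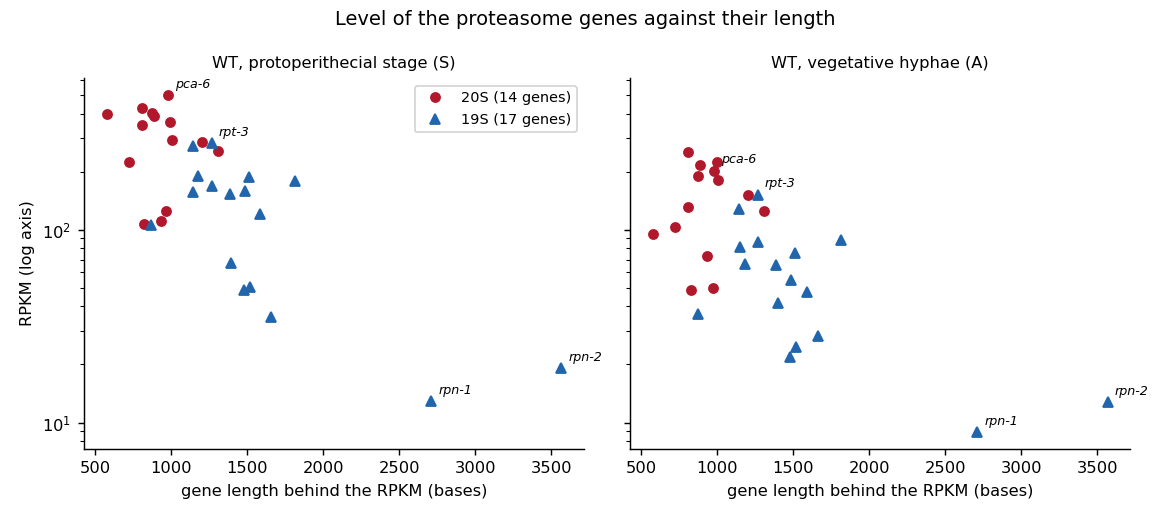
RPKM on a log axis against the gene length behind the RPKM for the 31 proteasome genes in the wild type at S (left) and A (right), circles for the 20S core and triangles for the 19S particle. *rpn-1* and *rpn-2*, the longest genes, have the lowest levels at S, with 12.9 and 19.2 RPKM.

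The ubiquitin genes did not move as 1 group. Of the 21, 18 were above the RPKM minimum in the comparisons with a library at S and 17 in those within A. NCU01268 (0 to 5 reads per library, where the 0 of the wild type at A allows up to 1.22 RPKM), NCU08501 and NCU09866 stayed below 10 RPKM everywhere. In the wild type, 9 of 18 passed 2-fold at S over A (background 46.5%) and the median was 2.04, or 1.16 rescaled, with 2 past 2-fold then (background 23.1%). In the mutants at S, 2 of 18 passed it upward in each (background 11.0% and 8.56%), with medians of 0.952 (Δmak-1) and 0.881 (Δmak-2). At A, 3 of 17 passed it upward in the Δmak-1 mutant (background 18.5%), with a median of 1.24, and 0 in the Δmak-2 mutant (background 7.26%), with a median of 1.13. None passed 2-fold downward in any of the 5 comparisons, where the background was also low, at 10.3% for the stages in the wild type, 8.35% and 10.7% for the Δmak-1 and Δmak-2 mutants at S, and 6.77% and 6.41% at A. The SD of the log2 ratios in the Δmak-1 mutant at S was 0.52, against 0.15 for the proteasome genes.

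Both E1 enzymes were measured. NCU04370, annotated with ubiquitin activating activity, had 71.4 RPKM in the Δmak-1 mutant, 56.5 RPKM in the Δmak-2 mutant and 86.9 RPKM in the wild type at S, against 70.8, 35.9 and 52.3 RPKM at A. In the Δmak-2 mutant it was below the wild type at both stages, with ratios of 0.650 (0.586–0.720) at S and 0.686 (0.593–0.793) at A. NCU02532, annotated as the catalytic subunit of the NEDD8-activating enzyme, had 64.9, 85.9 and 63.8 RPKM at S and 39.8, 30.8 and 27.2 RPKM at A. Here the Δmak-2 mutant was above the wild type at S, with a ratio of 1.35 (1.15–1.58). The 2 E1 genes thus lay on opposite sides of the wild type in the same library.

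Among the 5 E2 genes 1 stood apart. NCU07264, an E2 that the deposited annotation also places under response to light, had 245 RPKM in the Δmak-1 mutant, 353 RPKM in the Δmak-2 mutant and 104 RPKM in the wild type at S, and 45.7, 44.9 and 59.0 RPKM at A. Both mutants were above the wild type at S, with ratios of 2.36 (1.98–2.81) and 3.40 (2.87–4.03), and below it at A, with 0.775 (0.562–1.07) and 0.762 (0.544–1.07). Rescaled, the ratios at S were 2.19 and 3.35. At each stage the mutants were on the other side of the wild type than most proteasome genes were, and at A the intervals include 1. The NEDD8-conjugating E2 gene NCU03610 had 150, 149 and 169 RPKM in the Δmak-1 mutant, the Δmak-2 mutant and the wild type at S, against 53.9, 68.8 and 42.0 RPKM at A. In the wild type it was 4.02-fold (3.05–5.38) higher at S, or 2.29-fold rescaled, and the 3 strains overlapped at S within counting error. NCU05592 and NCU03623, both annotated to the removal of proteins from the endoplasmic reticulum, had stage ratios of 1.30 (1.06–1.59) and 1.79 (1.33–2.43) in the wild type, under the 2-fold limit, and the first of these was 0.741 when rescaled. NCU02113, annotated to polyubiquitination and repair after replication, had 2.12 (1.81–2.49).

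The highest level of the list belonged to NCU02289, which the annotation gives ubiquitin ligase activity and a part in cyclin breakdown, with 537, 555 and 630 RPKM in the Δmak-1 mutant, the Δmak-2 mutant and the wild type at S, and 302, 332 and 289 RPKM at A. It was 2.18-fold (2.03–2.34) higher at S in the wild type, or 1.24-fold rescaled, under the 2-fold limit. In RPKM both mutants differed from the wild type by less than 1.2-fold at both stages. Rescaled, the ratios over wild type were 0.793 at S and 0.796 at A in the Δmak-1 mutant. In the Δmak-2 mutant they were 0.869 and 1.09. NCU10046, with ligase activity in the annotation, had 108, 96.0 and 162 RPKM at S and 66.0, 77.3 and 54.8 RPKM at A. It had the lowest ratios of the list above the minimum in both mutants at S, 0.664 (0.551–0.798) and 0.592 (0.486–0.719). The U-box gene NCU10270 had the largest stage ratio of all 52 genes, with 27.0, 29.0 and 35.5 RPKM at S and 9.97, 6.81 and 3.75 RPKM at A. In the wild type this is 9.46-fold (4.39–24.2), from 84 reads at S and 7 reads at A, and 5.40-fold rescaled. Its levels at S did not differ between the strains beyond counting error.

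For 11 ubiquitin genes the table gives no role beyond the pathway. NCU01188 had 100, 109 and 46.9 RPKM in the Δmak-1 mutant, the Δmak-2 mutant and the wild type at S, against 46.6, 49.0 and 42.4 RPKM at A. It is the other gene of the list past 2-fold in both mutants at S, with ratios of 2.14 (1.82–2.53) and 2.32 (1.96–2.74), of which that of the Δmak-1 mutant fell just under the limit when rescaled, at 1.99. In the wild type its stage ratio was 1.11 (0.891–1.38), or 0.632 rescaled, so the high level at S was seen in the mutants. In the Δmak-1 mutant at A, NCU00181, NCU03526 and NCU11357 passed 2-fold, with ratios of 2.32 (1.65–3.32), 2.24 (1.52–3.37) and 2.17 (1.65–2.87), and none of them did so when rescaled, when NCU10270 did, at 2.02. At the other extreme, NCU09122 had 136 to 147 RPKM in all 6 libraries, with RPKM ratios of 0.930 to 1.08 in the 5 comparisons, though its stage ratio in the wild type was 0.615 when rescaled.

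**Figure D5:**
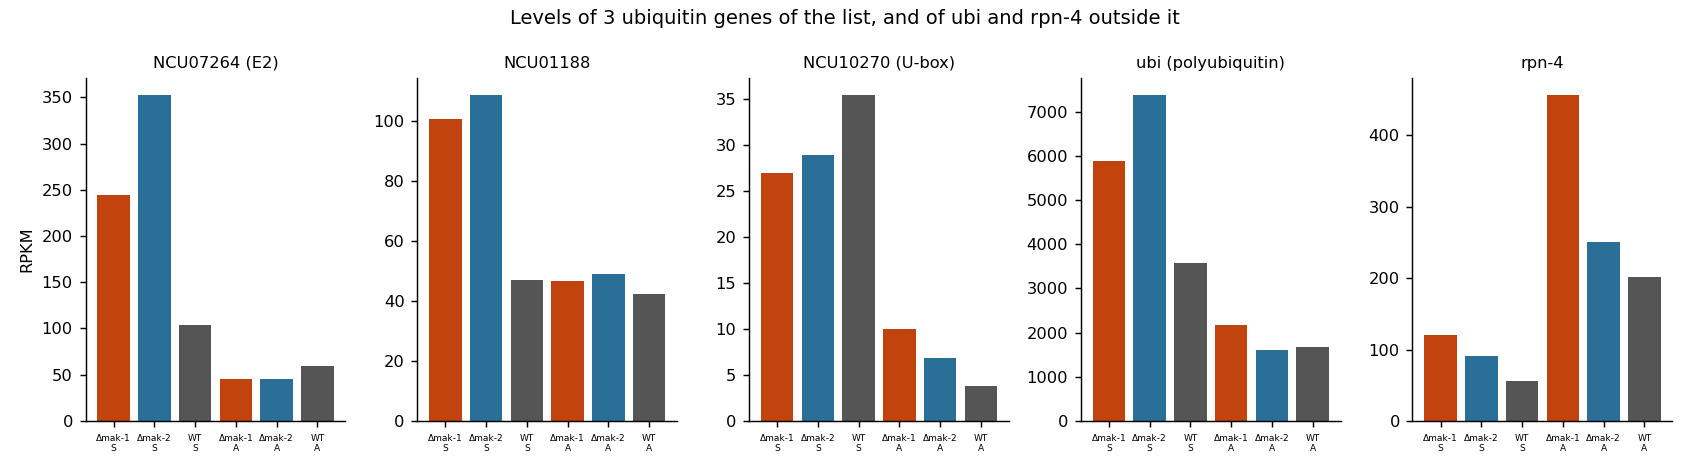
RPKM in the 6 libraries for 3 ubiquitin genes of the list and for *ubi* and *rpn-4*, which lie outside it. Bars are single libraries without error. NCU07264, NCU01188 and *ubi* are highest in the mutants at S, NCU10270 is highest in the wild type at S, and *rpn-4* is highest in the Δmak-1 mutant at A, with 457 RPKM.

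A pair of genes outside the 52 is tied to the system by product or by name. *ubi* (NCU05995), the polyubiquitin gene from which free ubiquitin is cut, had 5878 RPKM in the Δmak-1 mutant, 7388 RPKM in the Δmak-2 mutant and 3587 RPKM in the wild type at S, and 2178, 1600 and 1670 RPKM at A. The ratios over wild type at S were 1.64 (1.61–1.67) and 2.06 (2.02–2.10), so *ubi* was above the wild type in the libraries where most proteasome genes were below it. Another gene with *ubi* in its symbol, *ubi::crp-6* (NCU04553), differed less, with 1359, 1375 and 1199 RPKM at S. Its ratios there were 1.13 (1.09–1.18) and 1.15 (1.10–1.20), or 1.05 and 1.13 rescaled. *rpn-4* (NCU01640) carries the name of the yeast transcription factor that activates the proteasome genes in *Saccharomyces cerevisiae*. Whether it acts on these genes in *Neurospora crassa* was not tested. It had 121, 91.4 and 55.8 RPKM at S and 457, 251 and 201 RPKM at A, in the order Δmak-1, Δmak-2, wild type. At S over A in the wild type its ratio was 0.277 (0.247–0.311), opposite to the proteasome genes, and in the Δmak-1 mutant over wild type it was 2.17 (1.92–2.44) at S and 2.27 (2.12–2.43) at A. After rescaling by the median of ratios these were 2.01 and 1.73, the second no longer past 2-fold. *rpn-4* was thus high in the Δmak-1 mutant at both stages, whereas the proteasome genes were high at A only. *ubi* is 1 of 10 non-members whose description names the ubiquitin system. Of these 10, 6 were above the minimum in the wild type comparison of the stages, and 2 passed 2-fold upward (background 46.5%), with a median of 1.66, or 0.949 rescaled. *rpn-4* and *ubi::crp-6* came from a list of 29 genes by Gene Ontology term or symbol that was added after the data had been seen.

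On the RefSeq assembly NC12, *rpt-2* and the ubiquitin gene NCU01225 are direct neighbours, and *pcb-7* and *rpt-4* lie 2 genes apart. *rpt-2* and NCU01225 had ratios of 2.47 and 2.28 at S over A in the wild type and 0.685 and 0.9495 in the Δmak-1 mutant at S, and so differed in the mutant. *pca-1* lies 4 genes from the deleted *mak-1* and had ratios of 0.890 at S and 1.47 at A in the Δmak-1 mutant. The ratio at S was the highest of the alpha genes, and that at A lay within their range. On that assembly 21 of the 52 genes overlap the span of another gene. Among them are *pcb-3*, *pcb-7*, *pca-6*, *rpn-12*, NCU07264 and NCU10270, whose levels or ratios are singled out above. Whether the counting used strand is not given in the sources used here, and without it reads of the overlapping parts cannot be told apart.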

How the data were processed

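RNA was extracted with TRIzol, and Illumina HiSeq single-end reads were made from mixed RNA of 3 repeats per condition. The submitters' processing notes name CASAVA 1.8. For aligner, genome build and counting tool, the entry is: not given in the sources used here. Deposited were RPKM values for 9872 entries, made by the authors, together with their own ratios between libraries, which were not used. Whole reads were recovered for 8913 of the 8913 entries above 0 in 2 or more libraries, to within 1e-09 of their size or 1e-06 of a read. Of the gene lengths so recovered, 85.3% are multiples of 3, as in coding sequences. The recovery was tested on simulated data. Of the 52 genes, 52 matched a RefSeq record by locus tag, and 29 of these have a symbol other than the locus.

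The members, lists and role groups were chosen with earlier results of these data known. Named were genes past the thresholds, the extremes of each role group by level and by ratio, and *mak-1* and *mak-2*. *rpn-7*, *pcb-6*, NCU09122, *ubi*, *ubi::crp-6*, *rpn-4* and the neighbours were named after their values were seen. The planned search for promoter motifs was not run, since no sequences were used here. The alternatives were 2 scalings, fold limits of 1.5 and 3, an RPKM minimum of 20 or none, 1 RPKM added, and the whole counting interval beyond the limit. The software was scipy 1.17.1, pandas 2.3.3, numpy 2.4.6 and matplotlib 3.10.9 under Python 3.11.15.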

Additional observations from a re-analysis of the deposited data

Results flagged for a closer look

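The median ratio of the proteasome genes lay on opposite sides of 1 at the 2 stages in both mutants, at 0.762 at S and 1.51 at A for the Δmak-1 mutant over wild type and at 0.853 at S and 1.16 at A for the Δmak-2 mutant. The ubiquitin genes had medians of 0.952 at S and 1.24 at A in the Δmak-1 mutant and 0.881 at S and 1.13 at A in the Δmak-2 mutant. The medians of all genes at A were 1.33 (Δmak-1) and 1.08 (Δmak-2). Rescaled, the ubiquitin median of the Δmak-1 mutant at A was 0.949, below 1 as at S. The E2 gene NCU07264 went the other way than the RPKM medians of the 2 lists. Its ratios were 2.36 at S and 0.775 at A in the Δmak-1 mutant and 3.40 at S and 0.762 at A in the Δmak-2 mutant. None of these differences between the stages was tested, since each condition is 1 library. Both mutants share the wild type library of each stage, so a like pattern in both is not independent.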

How the results depend on the processing

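Of 160 counts of genes past the limits under the alternatives, 130 stayed within 1.5 times the main count. These include all 20 with an RPKM minimum of 20 and all 20 with 1 RPKM added. Most of the 130 were main counts of 0 that stayed 0, which a stricter limit cannot change. Main counts above 0 moved under many of the alternatives, as listed next. For the wild type at S over A, the 18 proteasome genes became 1 under both scalings, 28 at 1.5-fold, 1 at 3-fold and 9 by whole counting intervals, and the 9 ubiquitin genes became 2 under both scalings and at 3-fold and 4 by intervals. At 1.5-fold, proteasome counts that had been 0 became 3 lower (Δmak-1 at S), 1 lower (Δmak-2 at S), 16 higher (Δmak-1 at A), and 3 higher and 1 lower (Δmak-2 at A), and ubiquitin counts became 1 lower (Δmak-1 at S), 3 lower (Δmak-2 at S) and 2 higher (Δmak-2 at A). The 2 ubiquitin genes higher in the Δmak-1 mutant at S became 1 under the median of ratios and 0 at 3-fold or by intervals, and the 2 in the Δmak-2 mutant at S became 1 at 3-fold and by intervals. The count of 3 higher in the Δmak-1 mutant at A became 1 under both scalings, 0 at 3-fold or by intervals, and 5 with no RPKM minimum. Under the median of ratios that 1 was NCU10270, which is not among the 3. With no minimum, 1 ubiquitin gene was lower in the Δmak-2 mutant at S, and 1 was higher and 1 lower at A. Stricter limits and lower minimums change the counts by construction, and the cause of the other changes was not tested. No paired analysis was possible because each condition is 1 library and the labels carry no replicate numbers that link libraries. Depth limits the genes with few reads, such as NCU01268 and NCU10270.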

Other observations

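Other genes of the ubiquitin system outside the 2 pathways were measured as well. The COP9 signalosome takes NEDD8 off cullins, and of its 7 genes *csn-1* to *csn-7*, 3 passed 2-fold upward at S over A in the wild type, near the share of all genes above the minimum (46.5%), with a median of 1.63, or 0.930 rescaled. *csn-1* had 37.1, 51.7 and 44.3 RPKM in the Δmak-1 mutant, the Δmak-2 mutant and the wild type at S, against 21.0, 24.6 and 13.8 RPKM at A. *cul-1*, which encodes a cullin scaffold, had 30.5, 26.5 and 39.3 RPKM at S and 19.6, 12.8 and 11.7 RPKM at A, and was 3.37-fold (2.60–4.42) higher at S in the wild type, or 1.92-fold rescaled, under the 2-fold limit. The F-box gene *fwd-2* had 17.9, 12.3 and 18.97 RPKM at S and 37.7, 23.2 and 18.6 RPKM at A, so in RPKM the wild type hardly differed between the stages, with a ratio of 1.02 (0.788–1.32), or 0.581 rescaled, while in the Δmak-1 mutant the ratio of S over A was 0.475 (0.387–0.581). These genes were chosen after their values were seen, and no explanation was tested.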
